A study of Mus musculus with 36 samples.

Results

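Endothelial cells of the infarcted region of the mouse left ventricle were compared between hearts 14 days after ischemia-reperfusion (IR) and hearts 14 days after sham surgery. Per the labels, all mice were male C57BL/6 mice of 8 weeks. IR was a ligation of the left anterior descending coronary artery that was released after 1 hour, and sham mice had surgery without the ligation. Single cells were sorted into 384-well plates and counted with SORT-seq, in which each captured transcript carries a unique molecular identifier (UMI), so that a count stands for a molecule and not for a read. Cell types are not named in the deposited tables, and a well was taken as endothelial by its transcripts. It had at least 1000 nuclear UMIs, of which at least 0.6% came from Pecam1, Cdh5, Egfl7, Kdr, Emcn, Cav1, Ly6c1 and Fabp4, less than 1% from 8 macrophage genes and less than 2% from 5 collagen and proteoglycan genes of fibroblasts. This gave 114 endothelial wells of the 785 wells with 1000 UMIs on the compared plates. Of these, 52 came from 3 IR plates (20, 19 and 13 wells) and 62 from 4 sham plates (28, 18, 8 and 8 wells, for replicates 1, 5, 7 and 8). The whole series held 378 such wells among 3146, with day 14 sham replicate 2 counted, whose 8 endothelial wells were matched in replicate 7. The mouse behind each plate is not stated, so each p-value measures the spread between plates, which may be technical.

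Endothelial cells line every vessel of the heart. Those of cardiac capillaries are known for carrying fatty acids from the blood to the muscle, using lipoprotein lipase at the vessel wall, the transporter CD36 and fatty acid binding proteins, under the transcription factors Meox2 and Tcf15. After an infarct, endothelial cells of the border region are known to divide and sprout in response to vascular endothelial growth factor (VEGF) and apelin, to lay down basement membrane and to admit leukocytes.

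Endothelial genes that the rule did not use were higher in these wells than in cardiomyocyte-rich wells. The latter had at least 2% of UMIs from 8 cardiomyocyte genes and less than 0.6% from the rule genes. Low endothelial levels there were thus in part set by the choice of wells. Tie1, an endothelial receptor tyrosine kinase, was found at 762 UMIs per 1e6 nuclear UMIs (CPM) over the endothelial wells and at 43.5 CPM over the cardiomyocyte-rich wells of the same plates. Ptprb, the endothelial receptor phosphatase, stood at 1178 against 48.4 CPM, Eng, a co-receptor of the TGF-beta family, at 1016 against 32.3 CPM, and Cldn5, a tight junction protein, at 325 against 8.97 CPM. Each of these genes had UMIs on 7 of 7 plates. Ecscr, the lowest of the endothelial markers examined outside the rule, stood at 107 against 5.38 CPM, with UMIs on 6 of 7 plates. Pecam1 or Cdh5 had a UMI in 110 of the 114 wells, which is a description only, since both are genes of the rule. The share of UMIs from the 8 genes of the rule ran from 0.770% to 2.64% (median 1.34%) in IR wells and from 0.601% to 3.14% (median 1.44%) in sham wells. The highest share just outside was 0.587% on IR plates and 0.542% on sham plates. Between 0.6% and 0.8% lay 2 IR and 8 sham wells.

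The rule genes are given as a description, since they chose the wells. Fabp4, the fatty acid binding protein of capillary endothelium, had 7455, 7506 and 5747 CPM on the IR plates and 6911, 9444, 7867 and 8407 CPM on the sham plates, and the groups overlapped. Pecam1, an adhesion protein of the cell borders, had 912, 1217 and 884 CPM on the IR plates and 663, 760, 1190 and 1013 CPM on the sham plates. Cdh5, the cadherin that holds endothelial cells together, had 999, 1192 and 1158 CPM after IR and 748, 837, 621 and 338 CPM after sham surgery. Its lowest IR plate was above its highest sham plate. Emcn, a surface sialomucin of capillaries and veins, went the other way in mean, with 395 ± 72.0 CPM (SD, n = 3) after IR and 580 ± 105 CPM (n = 4) in sham. The levels of Kdr, the main VEGF receptor, averaged 912 ± 487 CPM after IR and 572 ± 282 CPM in sham, and those of Cav1, the protein of caveolae, 1871 ± 288 and 1830 ± 580 CPM. Egfl7, a matrix protein secreted by endothelium, and Ly6c1, a surface antigen of capillary cells, averaged 842 ± 54.5 and 654 ± 160 CPM after IR, and 1116 ± 337 and 509 ± 378 CPM in sham.

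Depth was moderate. The summed endothelial UMIs per plate were 47504 to 172106 for IR and 19322 to 141800 for sham, and the median well held 3352 and 3021.5 UMIs. A gene seen 3 times on a plate corresponds to 17.4 to 63.2 CPM on the IR plates and to 21.2 to 155 CPM on the sham plates, and values in this range rest on a few molecules. Sham replicate 2 was left out, since 37 of the 37 wells of replicate 7 were matched in it, and of its own 45 wells 35 were matched in replicate 7 and 10 in replicate 6 of IR day 3. No other plate shared more than 1 well with a compared plate. Sham replicates 3 and 4 were left out. In replicate 4, 17 transcripts made up 81.3% of the UMIs, led by Kcnq1ot1, Gm17821, A630089N07Rik and Vmn2r55. These are called background transcripts below, a list drawn up after the plate was seen.

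Endothelial wells made up 9.35%, 17.1% and 8.61% of the wells with 1000 UMIs on the IR plates (11.7% ± 4.71, SD, n = 3). On the sham plates they made up 21.9%, 27.7%, 20.0%, 21.6% and 10.1% (20.3% ± 6.37, n = 5, with replicate 6, which held 2 endothelial wells of 10). The lowest sham plate, replicate 8, fell inside the range of the IR plates. The difference of -8.57 percentage points did not pass a two-sided exact permutation test over plates (p = 0.0714, smallest possible 0.0357). In such shares, fewer endothelial cells cannot be told apart from more of the other cells. With sham replicates 3 and 4, whose wells held mostly background transcripts, the difference was -3.40 points, and with at least 2000 UMIs per well it was -26.0 points, where 1 sham plate stood at 100%. Neither passed the test (p = 0.6 and 0.0714, exact permutation).

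**Figure D1:**
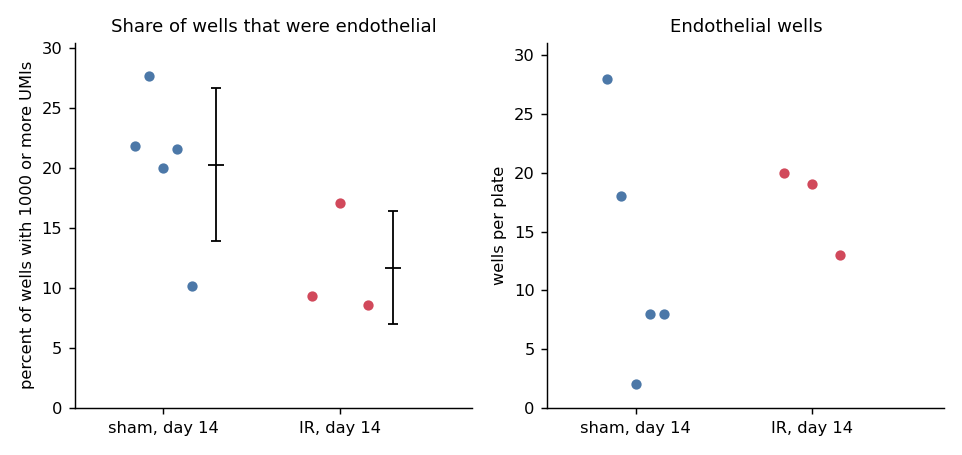
Share of wells with at least 1000 UMIs that were endothelial (left, percent) and number of endothelial wells (right), per plate at day 14, for sham (blue, 5 plates) and IR (red, 3 plates), with the mean and SD beside the shares. The IR plates lie at 8.61% to 17.1% and the sham plates at 10.1% to 27.7%, and the ranges overlap.

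Few genes separated the groups at day 14. The UMIs of each plate were summed over its endothelial wells and fitted with edgeR (quasi-likelihood F test, adjusted by Benjamini-Hochberg), which tested 1590 of the 13629 genes with a UMI. Past an adjusted p of 0.05, 2 genes were higher after IR (0.126% of those tested), Myh9 and Gm10785, and 0 were lower. DESeq2 called 8 genes, and 107 genes (6.73%) had an unadjusted p under 0.05. Every IR plate was above every sham plate for 37 genes (2.33%) and below for 96 (6.04%). The median log2 fold change over all tested genes was -0.02, and 47.9% of them were positive. These shares are to be set beside the counts of each gene list below. The biological coefficient of variation was 0.296.

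Myh9 (chr15:77760585-77842175 in RefSeq, GRCm38) encodes the heavy chain of non-muscle myosin IIA, the motor that tensions the cortex and stress fibres of endothelial cells. It had 471, 406 and 442 CPM on the IR plates and 127, 155, 51.8 and 61.4 CPM on the sham plates. The lowest IR plate was above the highest sham plate. The means were 439 ± 32.5 (SD, n = 3) and 98.7 ± 50.1 CPM (n = 4), a log2 fold change of 2.04 (SE 0.39, 95% interval 1.23 to 2.84, edgeR adjusted p = 0.0198). Myh9 UMIs were found in 35 of 52 IR wells (67.3%) and 24 of 62 sham wells (38.7%), but single wells gave 26 of the 81 UMIs of IR replicate 1 and 12 of the 21 of IR replicate 3. After each well was thinned to 1000 UMIs, the shares were 30.8% and 14.5%, and in cardiomyocyte-rich wells they were 3.16% and 2.27%. By plate, Myh9 was then found in 3 of 20, 10 of 19 and 3 of 13 IR wells and in 12.5% to 16.7% of sham wells. Without IR replicate 2 the thinned IR share was 18.2% (6 of 33 wells), nearer to that of sham. Over all other wells of the same plates, Myh9 stood at 51.4, 49.1 and 80.0 CPM after IR and at 37.9, 20.4, 28.0 and 41.1 CPM in sham. The call rested on every plate but IR replicate 1 and sham replicate 1. Without IR replicate 2 or 3, or sham replicate 5, 7 or 8, the log2 fold change was 1.90 to 2.20 with an adjusted p of 0.0658 to 0.155. Sham plates of day 1 held more Myh9 than those of day 14, with 286 to 360 CPM. Set against them, the day 14 IR plates differed by 0.47 on the log2 scale (edgeR adjusted p = 0.562).

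Gm10785 (chr16:91688898-91715755) is 1 of the 17 background transcripts. It had 918, 2003 and 1368 CPM on the IR plates and 557, 232, 311 and 491 CPM on the sham plates (log2 fold change 1.93, SE 0.36, edgeR adjusted p = 0.0198). The other wells of the same plates differed in the same direction, with 590, 1791 and 1243 CPM of Gm10785 after IR and 437, 224, 238 and 103 CPM in sham. Without IR replicate 2 or 3, or sham replicate 5, 7 or 8, its adjusted p was 0.0658 to 0.310. A single well gave 76 of its 158 UMIs on IR replicate 1. Set against the day 1 sham plates, which held 805 to 1558 CPM, the day 14 IR plates differed in Gm10785 by 0.28 on the log2 scale (edgeR adjusted p = 0.772).

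All 17 background transcripts had a positive log2 fold change in endothelial wells (median 1.32), beside 47.9% of all tested genes. An unadjusted p under 0.05 was found for 15, beside 6.73% of all tested genes, but 1 of the 17 passed in edgeR, beside 0.126%. DESeq2 called 7 of them, Kcnq1ot1 and Gm10785 included, of the 8 genes that it called among 1590. Together the 17 background transcripts made up 4.45%, 9.91% and 8.10% of endothelial UMIs on the IR plates and 2.48%, 3.08%, 4.03% and 3.60% on the sham plates. Every IR plate was above every sham plate, and an exact permutation test gave p = 0.0571, the smallest possible with 3 and 4 plates (0.429 adjusted over 10 measures). Kcnq1ot1, an imprinted long non-coding RNA, led them with 17216, 38632 and 31176 CPM after IR and 9401, 11853, 14750 and 13470 CPM in sham (log2 fold change 1.40, edgeR adjusted p = 0.215). In the other wells they made up 3.12% to 10.3% of UMIs on the IR plates and 0.690% to 2.18% on the sham plates. Rn45s, the ribosomal RNA precursor, made up 5.45% to 9.60% and 1.02% to 6.83% of endothelial UMIs. On the day 1 sham plates the background transcripts made up 4.85% to 9.43% of endothelial UMIs, within about the range of the day 14 IR plates. On the day 1 IR plates they made up 1.07% to 5.56%. In the day 1 comparison 12 of 17 were called lower after IR, beside 11.8% of all genes tested there, opposite in direction to day 14. What part these transcripts have in the other differences was not tested. With them left out, an alternative chosen after seeing the data, Myh9 was the 1 gene called.

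**Figure D2:**
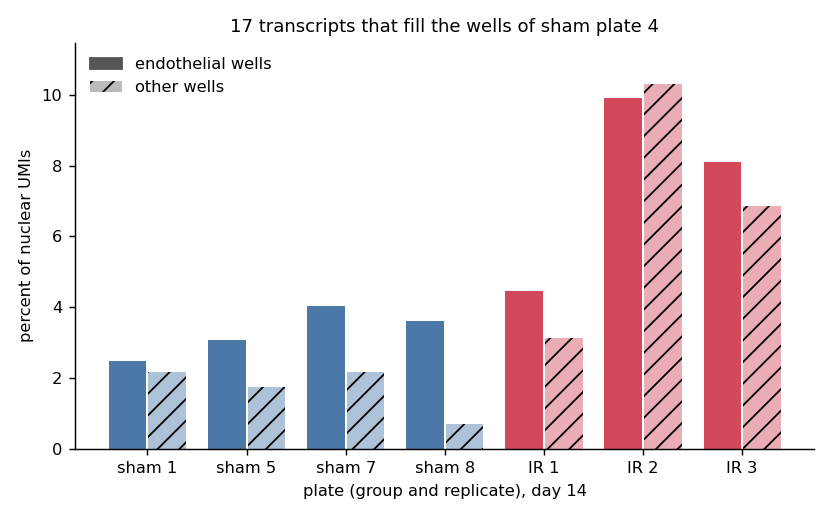
Summed share of nuclear UMIs from the 17 background transcripts (y axis, percent) on each compared day 14 plate (x axis), in endothelial wells (solid bars) and in all other wells (hatched bars), sham in blue and IR in red. In endothelial wells the IR plates lie at 4.45% to 9.91% and the sham plates at 2.48% to 4.03%.

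Markers of other cells were low in the endothelial wells except for those of cardiomyocytes. The 14 cardiomyocyte markers, 14 of 14 with UMIs in both groups, made up 1.86% to 3.66% of endothelial UMIs on the IR plates and 1.50% to 4.24% on the sham plates. By well, 8 of these genes gave at least 2% of UMIs in 17 of 52 IR and 28 of 62 sham wells, up to 8.08%. That share also defined the cardiomyocyte-rich wells, and 45 of the 114 endothelial wells reached it. Macrophage markers made up 0.0105% to 0.0379% and 0.00423% to 0.350%. The IR wells had UMIs for 11 of 15 of these, with Adgre1, Cd68, Fcgr1 and Tyrobp at 0, and the highest value belonged to sham replicate 8. Fibroblast markers made up 0.0773% to 0.143% of endothelial UMIs after IR and 0.0311% to 0.0889% in sham, with Tcf21 at 0 in both. Mural cell markers, those of pericytes and smooth muscle, made up 0.0533% to 0.127% and 0.0245% to 0.0709%. Markers of neutrophils, lymphocytes and erythrocytes stood at 0.00380% to 0.00842% after IR and at 0.00614% to 0.0992% in sham, where replicate 5 held the highest value. With 3 and 4 plates, none of the 10 measures of depth and composition could reach p under 0.05 in the exact permutation test (smallest possible 0.0571). Doublets were not called.

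No gene of endothelial identity passed the test. As only 0.126% of all tested genes passed it, this count says little about the list. Of 20 identity genes outside the rule 18 were tested, and 0 passed the edgeR test or DESeq2. An unadjusted p under 0.05 was found for 0 of the 18, beside 6.73% of all tested genes. Their log2 fold changes had a median of -0.06 and ran from -0.78 to 0.49, and 7 of 18 were positive, beside 47.9% of all tested genes. The IR plates were all above the sham plates for 0 of them and all below for 3, beside 2.33% and 6.04% of all tested genes. The lowest was Tek, the receptor of the angiopoietins, with 192, 88.8 and 232 CPM after IR and 303, 412, 155 and 307 CPM in sham (-0.78, 95% interval -1.62 to 0.06). Slc9a3r2, a scaffold protein of the endothelial membrane, averaged 664 ± 97.4 CPM after IR and 1061 ± 199 CPM in sham (-0.53, 95% interval -1.15 to 0.09). Ptprb differed by 0.49 (95% interval -0.14 to 1.12) and Flt1, a VEGF receptor that holds its ligand back, by 0.47 (-0.18 to 1.12).

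The genes of capillary fatty acid handling did not pass either, beside 0.126% of all tested genes that did. Of 21 genes of lipid and water transport 15 were tested, with a median log2 fold change of -0.15 (range -0.70 to 0.40). Of these, 4 of 15 were positive and 0 had an unadjusted p under 0.05, beside 47.9% and 6.73% of all tested genes. Summed over the list they made up 1.53%, 1.34% and 1.41% of endothelial UMIs after IR and 1.72%, 1.93%, 1.57% and 1.55% in sham. With the background transcripts and Rn45s left out of the total, an alternative chosen after seeing the data, the shares were 1.58% to 1.72% after IR and 1.62% to 2.02% in sham, and the groups overlapped. Sdpr, which shapes caveolae, had 2045, 1166 and 1916 CPM after IR and 2539, 2422, 2795 and 3314 CPM in sham, and the groups did not overlap (log2 fold change -0.56, 95% interval -1.19 to 0.08, edgeR adjusted p = 0.739). Meox2, the regulator of fatty acid uptake, averaged 110 ± 31.5 and 198 ± 52.8 CPM (-0.70, 95% interval -1.57 to 0.16). Timp4, an inhibitor of matrix proteases found in capillaries, averaged 196 ± 73.4 and 352 ± 66.3 CPM, and Car4, the membrane carbonic anhydrase of capillaries, 242 ± 45.9 and 351 ± 176 CPM.

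Arterial and venous genes were less well covered. Of 19 arterial genes 10 were tested, with 5 positive and a median of 0.07. Hey1, a Notch target of arterial cells, had 63.9, 38.0 and 0 CPM after IR and 183, 167, 362 and 0 CPM in sham (-1.83, SE 0.75, adjusted p = 0.704). Its sham replicate 8 and IR replicate 3 both lacked a UMI. Stmn2, a tubulin-binding protein that marks arterial capillaries, averaged 62.0 ± 71.0 and 209 ± 90.8 CPM (-1.41, adjusted p = 0.707). The receptors Notch1 and Notch4 had log2 fold changes of 0.78 and 0.76. Of 18 venous, endocardial and lymphatic genes 2 were tested, Vwf, the clotting factor carrier of large vessels, and Ephb4, the venous ephrin receptor (0.63 and 0.53). Vwf had 616, 368 and 0 CPM after IR and 508, 64.4, 104 and 153 CPM in sham. Its level rested on single cells, since 1 well gave 65 of the 72 UMIs of sham replicate 1 and 63 of the 106 of IR replicate 1.

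No gene of vessel growth passed the threshold, beside 0.126% of all tested genes that did. Of 25 genes of the VEGF, apelin and angiopoietin systems 15 were tested, with a median of 0.20. Of these, 10 were positive and 3 had an unadjusted p under 0.05, beside 47.9% and 6.73% of all tested genes. The 5 with a negative value were Tek, given above, Vegfb, a VEGF family ligand (-0.37), and Sparcl1, Igfbp3 and Aqp1 (-0.05 to -0.01). Plxnd1, the semaphorin receptor that steers sprouts, had 331, 494 and 589 CPM after IR and 240, 361, 311 and 92.0 CPM in sham, and the groups overlapped by 1 plate (0.98, SE 0.39, adjusted p = 0.704). After thinning to 1000 UMIs it was found in 28.8% of IR wells and 30.6% of sham wells, and 1 well gave 19 of its 57 UMIs on IR replicate 1. Aplnr, the apelin receptor, had 203, 178 and 211 CPM after IR and 84.6, 167, 104 and 30.7 CPM in sham, without overlap (1.04, SE 0.46, adjusted p = 0.707). Mcam, an adhesion protein and VEGF co-receptor, had 203, 228 and 274 CPM after IR and 84.6, 206, 104 and 0 CPM in sham (1.18, SE 0.50, adjusted p = 0.707). Single wells gave 9 of the 13 Mcam UMIs and 6 of the 10 Aplnr UMIs of IR replicate 3. Vegfa itself, with 69.7, 50.7 and 105 CPM after IR and 113, 38.7, 0 and 30.7 CPM in sham, was too low to be tested.

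Adhesion and junction genes were split evenly, with 8 of 14 positive and a median of 0.02. Itga6, a laminin receptor subunit, averaged 258 ± 56.5 CPM after IR and 163 ± 107 CPM in sham (0.89), and Tjp1, a tight junction scaffold, 210 ± 66.0 and 122 ± 62.1 CPM (0.66). In the other direction, Jam2, a junctional adhesion protein, averaged 505 ± 87.1 and 934 ± 331 CPM (-0.66). The edgeR adjusted p of these genes was 0.731 to 0.747.

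Basement membrane and matrix genes had the highest median of the lists by function with at least 3 tested genes. Of 25 genes 16 were tested, with a median of 0.50 beside -0.02 over all tested genes. Of these, 13 were positive and 5 had an unadjusted p under 0.05, beside 47.9% and 6.73% of all tested genes. In edgeR 0 passed the threshold, beside 0.126% of all tested genes, and 0 passed in DESeq2. Hspg2, the basement membrane proteoglycan perlecan, had 476, 672 and 547 CPM after IR and 303, 283, 207 and 184 CPM in sham. Its lowest IR plate was above its highest sham plate (1.24, SE 0.34, 95% interval 0.53 to 1.95, adjusted p = 0.204). Bgn, the small proteoglycan biglycan, had 442, 127 and 232 CPM after IR and 134, 38.7, 104 and 0 CPM in sham, and overlapped by 1 plate (1.88, SE 0.53, adjusted p = 0.209). Single wells gave 32 of its 76 UMIs on IR replicate 1, 9 of 10 on IR replicate 2 and 13 of 19 on sham replicate 1. Biglycan is also made by fibroblasts and mural cells, whose marker shares, given above, overlapped between the groups with higher means after IR, and their part in this difference was not tested. Serpinh1, the collagen chaperone, averaged 515 ± 61.6 CPM after IR and 286 ± 171 CPM in sham (0.90). Against the day 1 sham plates, the day 14 IR plates differed by 0.28 for Hspg2, 1.32 for Bgn and 0.037 for Serpinh1 on the log2 scale. The list made up 1.20% to 1.48% of endothelial UMIs after IR, 0.957% to 1.35% in day 14 sham and 1.22% to 1.51% in day 1 sham. The transcription factor Zeb1, known for driving mesenchymal change, averaged 224 ± 80.5 and 94.6 ± 50.3 CPM (1.01). Its relative Zeb2 had 98.8, 38.0 and 21.1 CPM after IR and 28.2, 12.9, 51.8 and 0 CPM in sham, at a few UMIs per plate, and was not tested.

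Fscn1 and Dynll2 were among the genes of smallest p that missed the threshold. Fscn1, which bundles actin in filopodia, had 442, 203 and 884 CPM after IR and 219, 116, 155 and 184 CPM in sham, overlapping in 1 IR plate (1.62, SE 0.45, adjusted p = 0.204). Single wells gave 42 of its 76 UMIs on IR replicate 1 and 21 of 42 on IR replicate 3, and after thinning to 1000 UMIs it was found in 19.2% of IR wells and 22.6% of sham wells. Dynll2, a dynein and myosin light chain, had 331, 368 and 232 CPM after IR and 120, 142, 0 and 123 CPM in sham, without overlap (1.58, SE 0.43, adjusted p = 0.204). Tubb2a, a beta-tubulin, went the other way, averaging 118 ± 25.7 CPM after IR and 324 ± 170 CPM in sham (-1.20, adjusted p = 0.669). Tmsb10, or thymosin beta 10, an actin-binding peptide, had 511, 406 and 295 CPM after IR and 268, 296, 51.8 and 184 CPM in sham (0.96, SE 0.38, adjusted p = 0.703). Tmsb4x, or thymosin beta 4, was the more abundant, with 3707, 5084 and 3894 CPM after IR and 3293, 4149, 4192 and 4081 CPM in sham (0.26, 95% interval -0.38 to 0.90), and Ptma, prothymosin alpha, differed by 0.37 (-0.25 to 0.99).

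**Figure D3:**
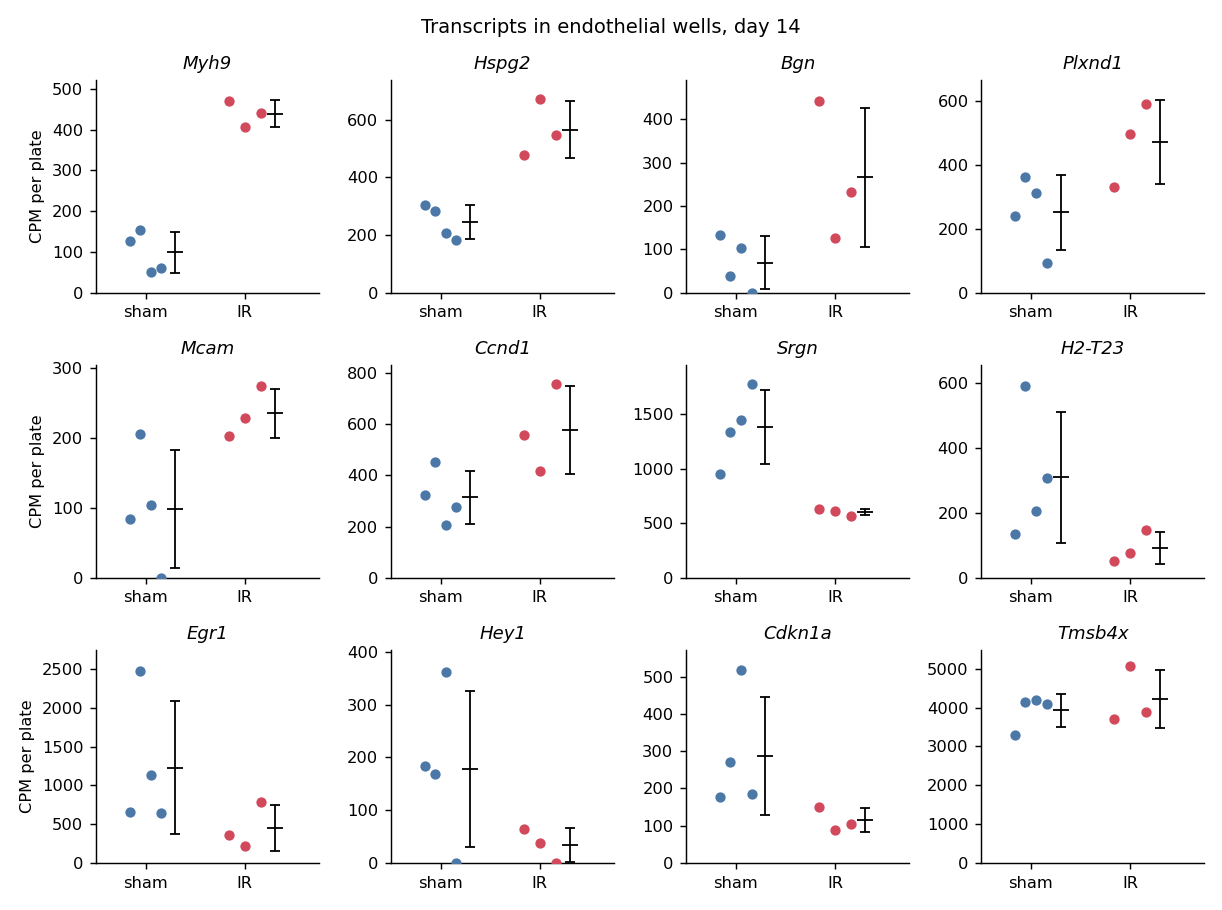
CPM per plate (y axes, each from 0) of 12 genes in day 14 endothelial wells, for sham (blue, 4 plates) and IR (red, 3 plates), with the mean and SD in black. Myh9, the 1 of these 12 past the threshold, lies at 406 to 471 CPM after IR and at 51.8 to 155 CPM in sham.

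Genes of antigen presentation had negative values more often than positive ones. Of 30 antigen presentation and interferon genes 16 were tested, with a median of -0.10. Of these, 5 were positive and 1 had an unadjusted p under 0.05, beside 47.9% and 6.73% of all tested genes. H2-T23, a non-classical class I molecule seen by natural killer cells, had 52.3, 76.1 and 147 CPM after IR and 134, 593, 207 and 307 CPM in sham (-1.83, SE 0.54, adjusted p = 0.227). It overlapped by 1 plate on each side. H2-D1, a classical class I heavy chain, averaged 1642 ± 90.0 and 2872 ± 870 CPM (-0.65, 95% interval -1.30 to 0.01). On sham replicate 8 the list had its highest share, 2.35% of endothelial UMIs, against 1.33% to 1.89% on the other sham plates and 1.25% to 1.51% after IR. The macrophage markers were also highest on that plate, where 1 well with 0.877% of its UMIs from the macrophage genes of the rule gave 9580 of the 32591 UMIs, and their part was not tested. Psmb8, a subunit of the immunoproteasome, differed by -0.59, while Ifitm3, an interferon-induced membrane protein, differed by 0.53 (-0.07 to 1.13).

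Immediate early genes respond within minutes to stimulation and to cell handling. Their list, which also holds shear-responsive genes, had a median of -0.45. Of its 17 tested genes 5 were positive and 1 had an unadjusted p under 0.05, beside 47.9% and 6.73% of all tested genes. Egr1 had 354, 216 and 779 CPM after IR and 656, 2474, 1139 and 644 CPM in sham (-1.40, SE 0.46, adjusted p = 0.445). A few cells carried much of it in both groups, since single wells gave 77 of the 192 UMIs of sham replicate 5 and 37 of the 61 of IR replicate 1. Fos and Fosb, subunits of the AP-1 factor, differed by -0.67 and -0.83 with adjusted p-values of 0.739 and 0.747. Srgn, the core protein of secreted proteoglycan granules, was the lower gene with the smallest p. It had 628, 609 and 568 CPM after IR and 952, 1340, 1449 and 1780 CPM in sham, with a wide gap between the groups (-1.03, SE 0.30, 95% interval -1.65 to -0.40, adjusted p = 0.227). Other genes that were lower at a small unadjusted p were Nde1, a dynein regulator of spindles (-1.86), Atp5f1 and Ndufs1 of the mitochondrial respiratory chain (-1.21 and -1.11), Azin1, which stabilises the polyamine enzyme ornithine decarboxylase (-1.57), Tsnax, of an RNA-processing complex (-1.09), and Ppap2a, a lipid phosphatase (-1.13). Their edgeR adjusted p-values were 0.445 to 0.686.

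Cell cycle genes were mostly below the filter, and 4 of 23 were tested. Ccnd1, the cyclin of entry into the cycle, had 558, 418 and 758 CPM after IR and 324, 451, 207 and 276 CPM in sham, overlapping by 1 plate (0.90, SE 0.35, adjusted p = 0.686). Cdkn1a, the p21 inhibitor that holds cells out of the cycle, had 151, 88.8 and 105 CPM after IR and 176, 271, 518 and 184 CPM in sham, without overlap (-0.95, SE 0.44, adjusted p = 0.731). Mki67, the marker of dividing cells, had a UMI in 6 of 52 IR wells and 3 of 62 sham wells.

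**Figure D4:**
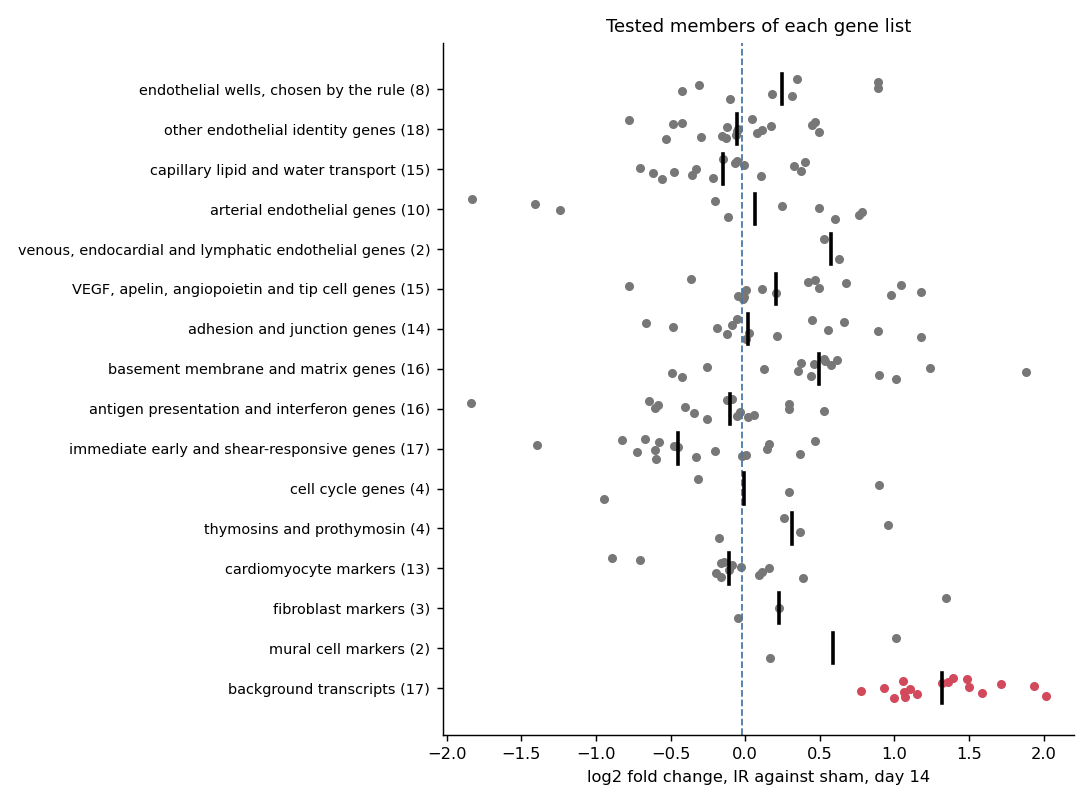
Log2 fold change of IR against sham at day 14 (x axis) for each tested member of the gene lists (rows, with the number of tested members), with a black bar at the list's median and a dashed line at the median of all 1590 genes tested. The background transcripts (red) lie furthest to the right with a median of 1.32, and the matrix genes have a median of 0.50. The immediate early and shear-responsive genes lie lowest at -0.45.

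Whether the endothelial difference at day 14 was that of day 1 was tested with plates of both days, which share no library. At day 1, 9 IR and 4 sham plates had at least 5 endothelial wells, 82 and 103 wells in all. Single wells carried much of some sums. They gave 190460 of the 229603 endothelial UMIs on IR replicate 9 of day 1, 137429 of 193187 on replicate 7 and 28115 of 37799 on replicate 2. On sham replicate 4 of day 1 a single well gave 51380 of 94760. In an edgeR fit of the 4 groups, 569 of 2653 genes differed between IR and sham at day 1 (21.4%), 257 higher (9.69%) and 312 lower (11.8%), while 0 differed at day 14, where 129 had an unadjusted p under 0.05. The IR effect itself differed between the days for 71 genes (2.68%). Of these, 51 had the more positive effect at day 14 (1.92%), and 51 of 51 had a negative one at day 1. The other 20 (0.754%) had a positive effect at day 1 and a more negative one at day 14. The day 1 effect passed on its own for 65 of the 71. Background transcripts made up 11 of the 71, and 57 were called when these transcripts were left out. The count rested on IR replicate 2 of day 14, without which 1 gene, Pln, was called. It was also 32 without IR replicate 3 of day 14, 33 without IR replicate 1, 36, 47 and 38 without sham replicates 5, 7 and 8 of day 14, and 43 and 26 without sham replicates 1 and 3 of day 1.

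Capillary lipid genes were among the lists with many lower genes at day 1. Of the 16 in this fit 13 passed as lower after IR at day 1, beside 11.8% of all genes tested, with a median log2 fold change of -1.43, against a median of -0.12 at day 14. Other lists also fell at day 1. Lower calls were made for 11 of 14 cardiomyocyte markers (median -1.90) and 12 of 17 background transcripts (median -1.29). They were made for 9 of 21 antigen presentation and interferon genes (median -0.97). The share of the capillary list in endothelial UMIs was 0.389% to 1.05% on the IR plates of day 1 and 1.70% to 2.21% on the sham plates of day 1. For 4 of the 16 capillary genes the effect was more positive at day 14, beside 1.92% of all genes. Lpl, lipoprotein lipase, had 450 to 1226 CPM on the 9 IR plates of day 1 (median 761) and 2717 to 3843 CPM on the 4 sham plates of day 1. At day 14 it had 2243, 2295 and 2273 CPM after IR and 3597, 2873, 2329 and 1503 CPM in sham, so that the IR plates lay within the range of the sham plates (difference of effects 2.05 on the log2 scale, SE 0.41, edgeR adjusted p = 0.0145). Tcf15, the partner of Meox2, had 0 to 113 CPM (median 51.8) and 306 to 767 CPM at day 1, and 389, 431 and 274 CPM against 437, 657, 466 and 460 CPM at day 14 (2.49, SE 0.52, adjusted p = 0.0161). Fabp3, the fatty acid binding protein of muscle, had 26.9 to 294 CPM after IR and 514 to 937 CPM in sham on day 1, and 1377, 786 and 674 CPM against 994, 1211, 155 and 1319 CPM at day 14 (2.66, SE 0.60, adjusted p = 0.0205). Sdpr had 265 to 1002 CPM after IR and 1425 to 2518 CPM in sham on day 1, and 1166 to 2045 CPM against 2422 to 3314 CPM at day 14 (1.60, SE 0.45, adjusted p = 0.0466), a call that was lost in 12 of 16 alternatives (adjusted p 0.0115 to 0.593).

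Lpl and Fabp3 are also muscle genes, and the cardiomyocyte markers moved in the same way. Pln, Myh6 and Actn2, of the cardiomyocyte calcium pump and sarcomere, were among the 71, with differences of 3.52, 3.41 and 2.93. The 14 cardiomyocyte markers made up 0.180% to 1.18% of endothelial UMIs on the IR plates of day 1, 1.27% to 1.81% on the sham plates of day 1 and 1.50% to 4.24% on the day 14 plates. In cardiomyocyte-rich wells of the day 14 plates, Lpl stood at 8566 to 11989 CPM and Fabp3 at 1933 to 4176 CPM, above the endothelial wells. Tcf15 stood there at 0 to 41.2 CPM and Sdpr at 57.4 to 187 CPM, below the endothelial wells. The part of cardiomyocyte RNA in the difference between the days was not tested.

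Other genes were high after IR on day 1 and had a more negative effect at day 14. Apln, the apelin ligand of sprouting tip cells, had 48.5 to 2332 CPM (median 456) on the IR plates of day 1 and 0, 0, 3.91 and 10.6 CPM on the sham plates. At day 14 it had 29.1, 50.7 and 21.1 CPM after IR and 0, 129, 51.8 and 0 CPM in sham, a few UMIs per plate (difference of effects -7.12, SE 1.82, adjusted p = 0.0283). The size of this fold depends on sham values near 0. Cdkn1a had 220 to 1338 CPM after IR on day 1 (median 883) and 67.4 to 201 CPM in sham, and it was the IR plates that were lower at day 14 (-3.43, SE 0.67, adjusted p = 0.0128). Slc2a1, the glucose transporter GLUT1, Rras2, a Ras-like GTPase, and Synpo, an actin-associated protein, differed by -6.20, -4.16 and -3.39. Slc2a1 had 1, 0 and 0 UMIs on the IR plates and 3, 2, 0 and 0 on the sham plates of day 14, so the size of its fold, too, depends on values near 0. These calls were lost in 7 of 15 alternatives for Slc2a1, 12 of 15 for Rras2 and 11 of 16 for Synpo. The call of Apln was lost in 7 of 16, that of Srgn, given next, in 6 of 16 and that of Cdkn1a in 2 of 16. Srgn differed by -1.64 (SE 0.39, adjusted p = 0.0216). It had 907 to 2221 CPM after IR on day 1 and 689 to 1183 CPM in sham, so its mean was higher after IR at day 1 and lower at day 14. Srgn is also abundant in leukocytes. The neutrophil, lymphocyte and erythrocyte markers made up 0.0196% to 0.711% of endothelial UMIs after IR on day 1 and 0.00253% to 0.0317% in day 1 sham, and their part in this difference was not tested.

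Further genes were low after IR on day 1 and had a more positive effect at day 14. Sparcl1, a secreted matrix protein, differed by 2.16 (edgeR adjusted p = 0.0247), a call that was lost in 7 of 16 alternatives. Rsad2, the antiviral protein viperin, had 0 to 126 CPM after IR on day 1 and, at day 14, 273 to 520 CPM after IR and 240 to 518 CPM in sham (3.52, adjusted p = 0.0161). Vldlr, the lipoprotein receptor that feeds lipase products into cells, had the largest positive difference, 4.36 (adjusted p = 0.0171), and rested on low levels, 51.8 to 168 CPM or 1 to 18 UMIs per plate in the endothelial wells of day 14. Its level in cardiomyocyte-rich wells of the same plates was 353 to 600 CPM. Mid1, a microtubule-associated ubiquitin ligase, Hrc, a calcium-binding protein of the muscle reticulum, and Rbmxl2, an RNA-binding protein, differed by 4.04, 3.66 and 3.65. Dynll2 differed by 2.68, having been lower after IR at day 1. For Myh9 the day 1 effect was 1.17 on the log2 scale (adjusted p = 0.00951), with 276 to 1376 CPM after IR, and the difference of 0.85 (SE 0.55) between the days did not pass (adjusted p = 0.453).

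**Figure D5:**
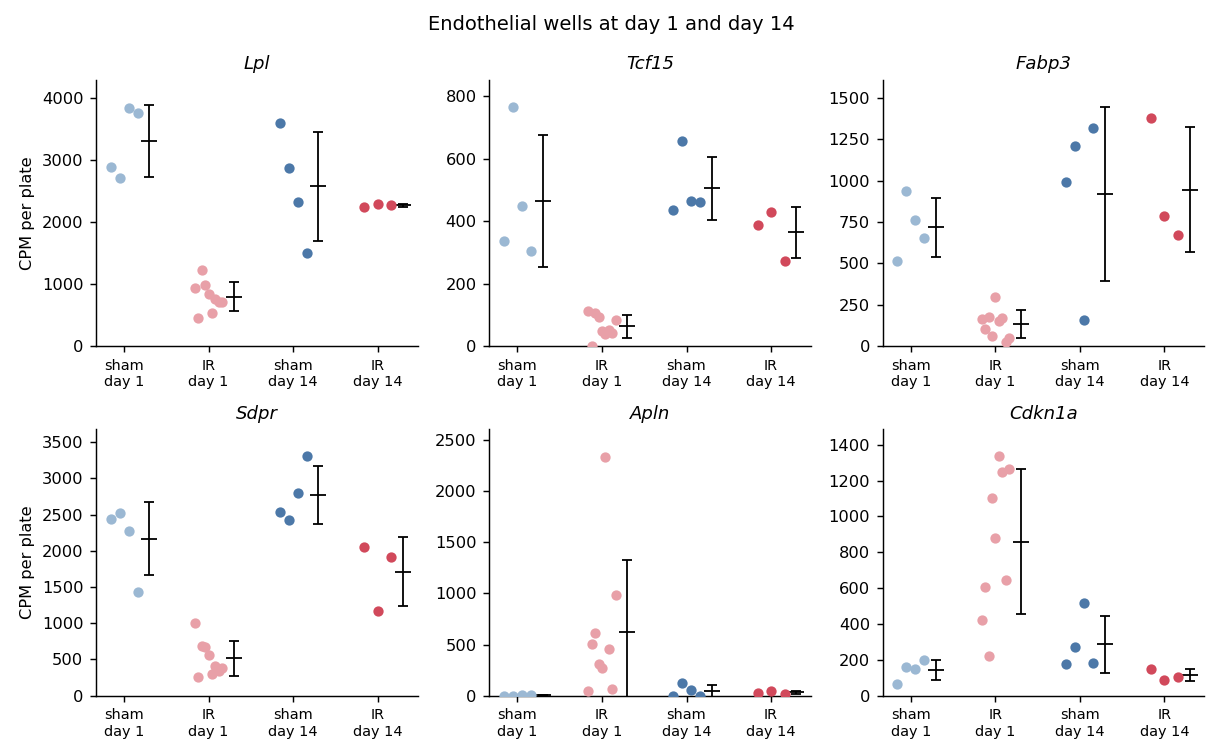
CPM per plate (y axes, each from 0) in endothelial wells of 6 genes whose IR effect differed between the days, for sham and IR at day 1 (4 and 9 plates) and day 14 (4 and 3 plates), with the mean and SD in black. Lpl lies at 450 to 1226 CPM after IR on day 1 and at 2243 to 2295 CPM after IR on day 14, where sham plates lie at 1503 to 3597 CPM.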

How the data were processed

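SORT-seq plates of 384 wells were analysed, 36 in the series. Per the labels, the authors mapped reads to GRCm38/mm10 with BWA (version not given in the sources used here) and deposited UMI counts per gene and well. The counts are whole numbers, with 0 exceptions and a maximum of 4096, the ceiling of 6-base UMIs. Spaces after gene names were removed in 3 tables. Mitochondrial and spike-in rows were left out, as the study did for mitochondrial genes. Each plate was 1 replicate, with groups from the labels. Total UMIs per plate were 2705635 to 4225419 for IR and 1135690 to 3341774 for the sham plates fitted.

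Counts were summed over the endothelial wells of each plate with at least 5 such wells and fitted with edgeR 4.0.16 in R 4.3.3 (filterByExpr, TMM, quasi-likelihood F test), with 2 groups at day 14 and 4 groups for the difference between the days. P-values were adjusted by Benjamini-Hochberg over all genes tested. CPM values are before TMM scaling and log2 fold changes after it. Plate shares were compared with exact permutation tests in scipy 1.17.1, two-sided. Fits were tested on simulated data. DESeq2 1.42.0, other minimums, left-out plates and other settings were alternatives. Intervals on counts cover counting error only. Coordinates are from RefSeq, which held 78 of the 83 named genes. Members and gene lists were chosen with earlier results of these data known. Named genes were the 8 of the rule, those past the threshold and the next by p to 10 in each direction, up to 4 of smallest p from each list, and Tmsb4x, Tmsb10, Ptma, Zeb2 and Vegfa. Text on the difference between the days names list members past the threshold and the 6 largest in each direction, with other genes of the earlier rule, chosen after their values were seen. A further gene picked for naming, outside the 8 of the rule, is not reported here.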

Additional observations from a re-analysis of the deposited data

Results flagged for a closer look

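In 7 of 58 groups of day 14 sham plates, 1 plate stood apart from the other 3 by Dixon's criterion, where chance gives about 1 in 20. These were the macrophage markers at 0.350% of endothelial UMIs on sham replicate 8, the neutrophil, lymphocyte and erythrocyte markers at 0.0992% on sham replicate 5, and Gm7609 (176 CPM), Dynll2 (0 CPM), Serpinh1 (541 CPM), Fos (1881 CPM) and Tmsb4x (3293 CPM).

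The IR effect in endothelial wells differed between day 14 and day 1 for 71 genes by the edgeR test of the difference. Among those named, it was more positive at day 14, on the log2 scale, for Lpl (2.05), Tcf15 (2.49), Fabp3 (2.66) and Sdpr (1.60). These belong to the capillary list, but Lpl and Fabp3 were higher in cardiomyocyte-rich than in endothelial wells of day 14. The effect was also more positive for Sparcl1 (2.16), Rsad2 (3.52), Vldlr (4.36), Mid1 (4.04), Rbmxl2 (3.65) and Dynll2 (2.68). Further, it was more positive for the muscle genes Pln (3.52), Myh6 (3.41), Actn2 (2.93) and Hrc (3.66). It was also more positive for the background transcripts A130077B15Rik (3.40), Gm10785 (3.41), Gm17821 (2.85), Gm7609 (3.44), Grk4 (2.42), Kcnq1ot1 (2.78) and Vmn2r55 (2.96). The effect was more negative for Apln (-7.12), Lcp1 (-6.38), Slc2a1 (-6.20), Rras2 (-4.16), Cdkn1a (-3.43), Synpo (-3.39), Azin1 (-2.62), Tubb2a (-2.15) and Srgn (-1.64). For Lcp1, an actin-bundling protein of leukocytes, 18 of the 19 UMIs of sham replicate 8 came from 1 well. Its call was lost in 7 of 15 alternatives and that of Azin1 in 10 of 15.

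Among plates in no comparison, the 17 background transcripts made up 81.3% of UMIs on sham replicate 4 and 77.2% in the wells of sham replicate 3 that were not endothelial.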

How the results depend on the processing

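The direction of Myh9 and Gm10785 was kept under every alternative run, but the number of genes called at day 14 was small and unsteady. Against 2 genes, it was 13 with no filter on low counts, 8 with DESeq2, 0 with all groups in the fit (231 at an unadjusted p under 0.05), 0 with at least 10 wells per plate (134), 4 with at least 1 well, 4 with at least 500 UMIs per well, 0 with at least 2000 (90), and 1 with the background transcripts left out, an alternative chosen after seeing the data. Keeping wells with an endothelial share of at least 1% gave 2 genes, Lars2 and Mir5109, in place of Myh9 and Gm10785, and leaving out wells rich in cardiomyocyte markers gave 3, Lars2, Mir5109 and Myh9. With the day 1 sham plates as control the 2 genes were Actc1 and Slc6a6. Leaving out 1 plate at a time gave 0 to 10. Adding sham replicates 3 and 4 could not change this fit, as they held fewer than 5 endothelial wells. The 7 lower genes of the unfiltered fit included H2-Ab1, H2-Aa and Cd74, with 42 of 42, 47 of 49 and 39 of 39 UMIs of sham replicate 8 in 1 well. The cause of the other changes was not tested.

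Of 931 values of 47 named genes under other settings, 879 kept direction and side of the threshold and 10 changed sign. With the day 1 sham plates as control, chosen after seeing the data, the sign changed for A130077B15Rik (-0.15), Gm7609 (-0.42), Atp5f1 (0.97), Tsnax (0.17), Ephb4 (-0.43), Aplnr (-0.21), H2-D1 (0.12), Ifitm3 (-0.065) and Rn45s (-0.064). The sign of Vwf changed instead with 1 plate left out, where its values ranged from -0.10 to 1.12. Over all alternatives Vwf reached 2.33.

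For the difference between the days, DESeq2 called 111 genes, with an adjusted p given as missing for 1492, against 71. Leaving out 1 plate of day 14 or of day 1 sham at a time gave 1 to 65, and the IR plates of day 1 were not left out. Of 387 values of 25 named genes, 266 kept their side of the threshold, 121 lost it and 0 changed sign. With the replicate number as a block, 9 genes were called. The numbers do not pair the plates: over 16 same-numbered pairs the correlation of deviations from the group means ran from -0.10 to 0.079 (median -0.028). No paired analysis was possible because the day 14 groups share only replicate number 1. Of the 13629 genes with a UMI, 1590 had counts high enough to be tested, and 3 IR and 4 sham plates cannot reach p under 0.05 in an exact permutation test.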
